A study of Mus musculus with 12 samples.

Results

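The genes described here are 10 genes of the YAP/TEAD pathway and its targets: the coactivators Yap1 and Wwtr1, the transcription factors Tead1 and Tead4, the kinases Lats1 and Lats2, and the target genes Ctgf, Cyr61, Ankrd1 and Amotl2. They were selected by symbol from the 24421 genes of the count table, and each of them was among the 15220 genes kept by the filter on low counts. The experiment asked how mouse embryonic fibroblasts (MEFs) that lack the transcription factors TFEB and TFE3 respond to etoposide, a topoisomerase II poison that breaks DNA. Gene expression was measured by RNA-Seq of ribosome-depleted total RNA in 4 groups of 3 libraries: untreated Null MEFs, Null MEFs after 8 hr in 100 µM etoposide, untreated TFEB/TFE3 DKO MEFs, and TFEB/TFE3 DKO MEFs after 8 hr in 100 µM etoposide. Null is the name that the sample labels give to the control genotype. The labels call the controls without drug untreated, while the methods of the study describe a DMSO control. The DKO MEFs were made with CRISPR-Cas9, and the MEFs of the study were immortalized with SV40. The sample labels do not tell separate DKO lines of MEFs apart, so an effect of the lost genes and a difference between cell lines cannot be told apart. The replicates are not stated to be separate cultures, so the p-values measure the spread between these libraries, which may be technical.

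The 3 untreated Null libraries held between 66956083 and 83970210 counts on genes (median 67654759), against 66749645 to 104120871 in untreated DKO MEFs (median 74826945), 63286195 to 76125320 in Null MEFs after etoposide (median 75454495) and 45577023 to 94388705 in DKO MEFs after etoposide (median 68441372). Levels are given in CPM, the counts scaled to each library's TMM-adjusted size, as mean ± SD of 3 libraries. A count of 3 in a library, the level treated here as not detected, corresponded to between 0.0298 and 0.0607 CPM. The member with the fewest counts, Ankrd1 in DKO MEFs after etoposide, had 322 to 518 counts per library.

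YAP (from Yap1) and TAZ (from Wwtr1) are coactivators without a DNA-binding domain of their own, and they act on target genes through the TEAD transcription factors. In the Hippo pathway the kinases MST1 and MST2 (from Stk4 and Stk3) activate the kinases LATS1 and LATS2, which phosphorylate YAP and TAZ and so keep them out of the nucleus. In fibroblasts YAP and TAZ are known for responding to cell density and to the stiffness of the matrix, and Lats2 and Amotl2 are themselves targets that feed back on the pathway.

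Tfeb, one of the edited genes, checks the genotype labels. It was measured at 38.9, 39.2 and 42.1 CPM in the untreated Null libraries and at 4.60, 6.09 and 4.68 CPM in the untreated DKO libraries. After etoposide the levels were 11.4, 10.2 and 10.4 CPM in Null MEFs and 1.92, 1.61 and 2.20 CPM in DKO MEFs. Each DKO library lay below each Null library of the same treatment. Tfe3 RNA, at 92.7 ± 1.61 CPM in untreated DKO MEFs and 113 ± 2.83 CPM in untreated Null MEFs, remained abundant, and since an edit that inactivates a gene need not lower its transcript, its level is no check of the label. Cdkn1a, a p53 target that blocks the cell cycle, checks the treatment: it lay between 498 and 511 CPM in Null MEFs after etoposide and between 60.1 and 71.5 CPM without it. In DKO MEFs Cdkn1a lay between 227 and 254 CPM after etoposide and between 38.4 and 40.7 CPM without it. Mdm2, a p53 target that encodes an inhibitor of p53, averaged 121 ± 5.71 CPM in untreated and 1834 ± 55.8 CPM in etoposide-treated Null MEFs, against 109 ± 2.38 and 589 ± 5.21 CPM in DKO MEFs.

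Etoposide lowered 9 of the 10 genes in Null MEFs and all 10 in DKO MEFs, and it raised Cyr61 in Null MEFs, all past the adjusted p threshold of 0.05 (quasi-likelihood F-test of edgeR, with p-values adjusted by the Benjamini-Hochberg procedure over all genes tested). These directions held with DESeq2's size factors, while under library size alone the fall of Amotl2 in Null MEFs was not past the threshold and Lats1 in DKO MEFs had a log2 fold change of 0.04. Changes were widespread in this experiment, with 78.4% of all tested genes past the threshold in Null MEFs (41.7% higher and 36.8% lower) and 75.3% in DKO MEFs (44.0% higher and 31.3% lower). The median log2 fold change of the 10 genes was -0.61 in Null MEFs and -1.03 in DKO MEFs, against 0.07 and 0.14 for all tested genes. A fall of at least 2-fold was found for 3 of the 10 genes in Null MEFs and for 6 in DKO MEFs, beside 8.07% and 7.90% of all tested genes. These counts depend on the processing. Over the alternatives run, the log2 fold changes of Wwtr1, Lats2 and Cyr61 in DKO MEFs reached -0.76, -0.93 and -0.76, short of 2-fold. That of Wwtr1 in Null MEFs reached -0.99.

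Without etoposide, 7 of the 10 genes were higher and 2, Tead4 and Ankrd1, were lower in DKO than in Null MEFs, with a median log2 fold change of 0.53, while under library size alone Wwtr1 was also lower (-0.11, adjusted p = 0.011 from edgeR). Across all tested genes 67.4% differed between the untreated genotypes (33.4% higher and 34.1% lower in DKO MEFs) and the median was -0.02. After etoposide 7 genes were higher in DKO MEFs, with Wwtr1 among them and not Cyr61 (6 with DESeq2's size factors, where Wwtr1 was not past the threshold), and 2, Cyr61 and Ankrd1, were lower, with a median of 0.18. The background of that comparison was 72.0% of all tested genes (36.9% higher and 35.2% lower), with a median of 0.00. The response to etoposide itself differed between the genotypes for 8 of the 10 genes by the interaction term, 4 with a higher and 4 with a lower response in DKO MEFs, beside 54.6% of all tested genes (29.9% higher and 24.7% lower). Of these 8, Wwtr1 was past the threshold only narrowly, as described below. Scaling by library size alone moved the all-gene median by 0.17 (log2) for etoposide in Null MEFs, by 0.27 for etoposide in DKO MEFs, by -0.12 for the untreated genotypes and by 0.11 for the interaction. Smaller differences are relative to the scaling chosen.

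**Figure D1:**
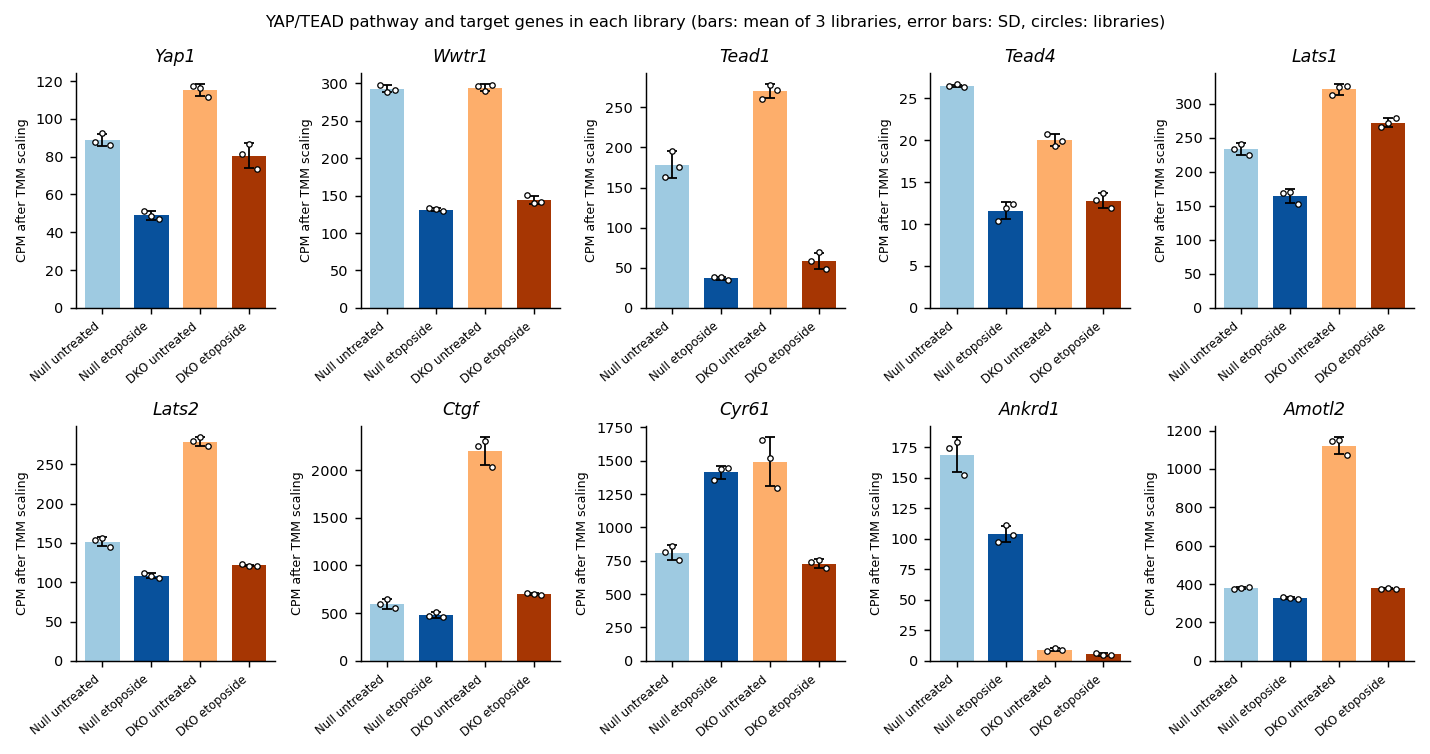
Level of each of the 10 genes in each library, in CPM after TMM scaling, with bars for the mean of 3 libraries, error bars for the SD and circles for single libraries. Ctgf, Lats2 and Amotl2 stand highest in untreated DKO MEFs (2198, 279 and 1122 CPM), Cyr61 is similarly high in untreated DKO MEFs and etoposide-treated Null MEFs (1491 and 1411 CPM), and Ankrd1 is near the axis in both DKO groups (9.17 and 5.44 CPM).

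Both coactivator transcripts fell with etoposide in both genotypes, and Yap1 was the one that also differed between untreated genotypes. Yap1 (chr9:7931999-8004596, minus strand, GRCm38) was measured at 88.0, 92.3 and 86.0 CPM in untreated Null MEFs and at 51.2, 48.8 and 46.8 CPM after etoposide. In DKO MEFs it was measured at 117, 117 and 112 CPM without etoposide and at 81.3, 86.6 and 73.7 CPM after it. The 4 groups formed 4 separate ranges apart from the lowest untreated Null library (86.0 CPM), which lay just below the highest DKO library after etoposide (86.6 CPM). The log2 fold change with etoposide was -0.86 (standard error, SE, 0.05, adjusted p = 1.3e-10 from edgeR) in Null MEFs and -0.52 (SE 0.05, adjusted p = 1.2e-07 from edgeR) in DKO MEFs, an interaction of 0.34 (SE 0.07, adjusted p = 7.9e-04 from edgeR). DKO MEFs held 1.30 times the Yap1 level of Null MEFs without etoposide and 1.64 times that level after it. An antisense transcript, Gm20416, shares 116 bases (1.25%) of the Yap1 exons.

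Wwtr1 (chr3:57455649-57575910, minus strand) did not separate the untreated genotypes: its levels were 298, 289 and 292 CPM in Null MEFs and 296, 289 and 297 CPM in DKO MEFs, which overlap. After etoposide its levels were 133, 132 and 129 CPM in Null MEFs and at 150, 140 and 141 CPM in DKO MEFs. Etoposide thus left 44.8% of the untreated level in Null MEFs and 48.9% in DKO MEFs, log2 fold changes of -1.16 (SE 0.03, adjusted p = 1.2e-14 from edgeR) and -1.03 (SE 0.03, adjusted p = 7.6e-14 from edgeR). The small excess in DKO MEFs after etoposide (log2 fold change 0.13, adjusted p = 0.0025 from edgeR) and the interaction (0.13, adjusted p = 0.038 from edgeR) fell below the threshold with DESeq2's size factors, at 0.07 (adjusted p = 0.072) and 0.06 (adjusted p = 0.31) in edgeR. The interaction also lost the threshold with DESeq2 (0.06), without a filter (0.11), among genes averaging 1 CPM or more (0.08), and without Null_untreated replicate 1 (0.11), DKO_untreated replicate 1 (0.11) or 2 (0.10), Null_etoposide replicate 2 (0.13) or 3 (0.12), or DKO_etoposide replicate 1 (0.08). The genotype difference after etoposide was also not past the threshold among genes averaging 1 CPM or more (0.07) and without DKO_etoposide replicate 1 (0.08).

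The TEAD factors bind DNA and recruit YAP and TAZ. Tead1 had the largest fall with etoposide among the 10 genes in both genotypes. Tead1 (chr7:112679318-112906807, plus strand) was measured at 163, 196 and 176 CPM in untreated Null MEFs and at 38.4, 38.1 and 35.0 CPM after etoposide. In DKO MEFs the levels were 261, 277 and 272 CPM without etoposide and 58.6, 69.1 and 49.1 CPM after it. Each etoposide library lay below each untreated library of either genotype, and at each treatment the DKO libraries lay above the Null libraries. The fall was 4.79-fold in Null MEFs and 4.59-fold in DKO MEFs (log2 fold changes -2.26 and -2.20, SEs 0.09, adjusted p = 8.3e-13 and 1.6e-12 from edgeR). The interaction of 0.06 (SE 0.13, adjusted p = 0.72 from edgeR) was not past the threshold. Tead1 in DKO MEFs stood at 1.51 times the Null level without etoposide and at 1.58 times after it (adjusted p = 1.4e-05 and 6.3e-06 from edgeR).

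Tead4 (chr6:128224288-128300823, minus strand) differed from the other TEAD member in its genotype difference. It was measured at 26.4, 26.7 and 26.4 CPM in untreated Null MEFs and at 20.7, 19.3 and 19.9 CPM in untreated DKO MEFs, which do not overlap. After etoposide the levels were 10.4, 11.9 and 12.4 CPM in Null MEFs and 12.8, 13.7 and 11.9 CPM in DKO MEFs, which do. The log2 fold change between genotypes was -0.41 (SE 0.07, adjusted p = 4.0e-05 from edgeR) before etoposide and 0.14 (SE 0.07, adjusted p = 0.077 from edgeR) after it. Without Null_etoposide replicate 3 the latter was 0.20 (adjusted p = 0.028 from edgeR) and without DKO_etoposide replicate 3 it was 0.19 (adjusted p = 0.034 from edgeR), both past the threshold. The fall with etoposide was larger in Null MEFs (-1.20) than in DKO MEFs (-0.64), an interaction of 0.55 (SE 0.10, adjusted p = 1.3e-04 from edgeR).

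The other TEAD genes did not move as one family. Tead2 fell with etoposide, from 130 ± 0.487 to 98.2 ± 2.50 CPM in Null MEFs and from 115 ± 2.65 to 88.6 ± 2.11 CPM in DKO MEFs. Tead3 rose in Null MEFs from 23.4 ± 0.980 to 32.5 ± 0.903 CPM and fell in DKO MEFs from 54.5 ± 2.39 to 27.8 ± 3.68 CPM, an interaction of -1.45 (SE 0.10, adjusted p = 3.2e-09 from edgeR). These directions held under DESeq2's size factors and under library size alone. Per kilobase of exon, the TEAD genes ranked Tead2 (27.3 CPM per kb), Tead1 (13.1), Tead4 (7.36) and Tead3 (3.49) in untreated Null MEFs, and Tead2 (18.5), Tead1 (4.34), Tead3 (4.14) and Tead4 (3.56) in DKO MEFs after etoposide, where the libraries of the last 3 overlapped. With the longest transcript as the length, Tead3 (8.08 ± 1.07) stood above Tead1 (5.91 ± 1.00) and Tead4 (4.16 ± 0.292) in DKO MEFs after etoposide.

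Vgll proteins compete with YAP and TAZ for TEADs. Vgll4, a repressor of TEAD activity, moved as Tead3 did: it was measured at 13.1, 13.9 and 12.7 CPM in untreated Null MEFs and at 19.9, 19.5 and 20.02 CPM after etoposide, against 26.1, 27.6 and 23.7 CPM in untreated DKO MEFs and 15.0, 14.1 and 14.3 CPM after etoposide. It rose by a log2 fold change of 0.58 in Null MEFs and fell by 0.84 on the log2 scale in DKO MEFs, an interaction of -1.42 (SE 0.09, adjusted p = 7.4e-10 from edgeR). Vgll3 fell in both genotypes, to 88.5 ± 0.839 CPM from 161 ± 5.55 CPM in Null MEFs and to 148 ± 0.759 CPM from 314 ± 0.681 CPM in DKO MEFs. Vgll1 and Vgll2 were not kept by the filter on low counts.

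The LATS kinases inhibit YAP and TAZ. Both fell with etoposide in both genotypes (Lats1 in DKO MEFs with the exception under library size given above), but their responses differed between genotypes in opposite directions. Lats1 (chr10:7681214-7716460, plus strand) was measured at 234, 241 and 225 CPM in untreated Null MEFs and at 169, 171 and 152 CPM after etoposide. In DKO MEFs it was measured at 312, 324 and 326 CPM without etoposide and at 265, 272 and 279 CPM after it, so that every DKO library, with or without etoposide, lay above every Null library. The log2 fold change with etoposide was -0.51 (SE 0.04, adjusted p = 1.2e-08 from edgeR) in Null MEFs and -0.24 (SE 0.04, adjusted p = 1.2e-04 from edgeR) in DKO MEFs, the latter turning to 0.04 (adjusted p = 0.44 from edgeR) under library size alone. The interaction was 0.27 (SE 0.06, adjusted p = 0.0012 from edgeR).

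Lats2 (chr14:57689662-57758388, minus strand) was measured at 153, 157 and 145 CPM in untreated Null MEFs and at 279, 284 and 273 CPM in untreated DKO MEFs. After etoposide its levels were 111, 108 and 105 CPM in Null MEFs and at 123, 121 and 121 CPM in DKO MEFs. None of the 4 ranges overlapped, and the gap between the genotypes narrowed from 1.84-fold to 1.12-fold. The fall in DKO MEFs (-1.20, SE 0.04, adjusted p = 2.7e-14 from edgeR) was larger than that in Null MEFs (-0.49, SE 0.04, adjusted p = 2.8e-09 from edgeR), an interaction of -0.71 (SE 0.05, adjusted p = 6.7e-09 from edgeR). The annotated exons of Lats2 share 2955 bases (42.4%) with the protein-coding gene Gm49361 on the same strand, so that the Lats2 count is uncertain.

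Promoter sequences, 250 bases before to 50 after an annotated start, were taken from RefSeq (GRCm38.p6), where 7 of the 10 genes matched with 9 windows, 2 each for Wwtr1 and Lats2. Tead1, Tead4 and Ctgf were not matched in the table used here. The windows were searched on both strands for the TEAD core motif GGAATG (reverse complement CATTCC) and for the palindromic E-box CACGTG, the core of the sites bound by TFEB and TFE3. The motifs do not overlap each other. The TEAD core motif was found in a window of 6 of the 7 genes, Lats1 being the exception, and for 16.6% of the 27025 genes in the table (14.7% of 32851 windows). The E-box was found for Yap1 and Lats2, and for 8.09% of all genes (7.15% of windows), while 0.938% of all windows held both motifs. The other Lats2 window (chr14:57734369-57734668) held neither motif. A match describes the letters of the window and shows no binding. The windows of Lats2 (chr14:57746074-57746373, minus strand) and Yap1 (chr9:8004547-8004846, minus strand) are shown because they hold both motifs, in capitals and 5′ to 3′ on the strand of the gene.
Lats2 promoter: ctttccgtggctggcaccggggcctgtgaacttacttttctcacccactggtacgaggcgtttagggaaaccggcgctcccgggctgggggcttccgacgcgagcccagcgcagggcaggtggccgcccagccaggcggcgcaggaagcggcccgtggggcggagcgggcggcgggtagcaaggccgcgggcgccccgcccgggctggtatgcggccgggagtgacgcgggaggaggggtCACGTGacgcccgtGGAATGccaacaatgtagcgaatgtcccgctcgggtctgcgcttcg
Yap1 promoter: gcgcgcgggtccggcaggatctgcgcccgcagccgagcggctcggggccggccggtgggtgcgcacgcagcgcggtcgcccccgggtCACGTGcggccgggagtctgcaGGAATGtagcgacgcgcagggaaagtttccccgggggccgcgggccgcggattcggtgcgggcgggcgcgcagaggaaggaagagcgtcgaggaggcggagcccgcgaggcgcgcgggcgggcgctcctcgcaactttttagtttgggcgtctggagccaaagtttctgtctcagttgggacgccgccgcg
In the Lats2 window the E-box began at position -10 and the TEAD core motif at position 5, counted from the annotated start. In the Yap1 window they began at -163 and -141.

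Among kinases upstream of or related to LATS, Stk3, which encodes MST2, fell from 81.2 ± 1.38 to 34.5 ± 1.44 CPM in Null MEFs and from 70.7 ± 3.36 to 43.7 ± 2.89 CPM in DKO MEFs, an interaction of 0.54 (SE 0.07, adjusted p = 4.4e-06 from edgeR). Stk4 lay between 96.2 and 112 CPM on average in the 4 groups, with log2 fold changes of -0.11 with etoposide in each genotype that turned to 0.06 in Null MEFs and 0.16 in DKO MEFs under library size alone. In Null MEFs the call of Stk4 was also lost with DESeq2 (-0.06), with DESeq2's size factors in edgeR (-0.06) and among genes averaging 1 CPM or more (-0.02). Stk38l, an NDR kinase related to LATS, fell from 34.7 ± 1.36 to 21.2 ± 1.32 CPM in Null MEFs and from 67.8 ± 2.40 to 18.4 ± 1.14 CPM in DKO MEFs.

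The 4 target genes are those commonly read out as YAP/TAZ activity, and 3 of them, Ctgf, Amotl2 and Cyr61, were higher in untreated DKO than in untreated Null MEFs and lost that excess in part or whole after etoposide. Ctgf (Ccn2, chr10:24595442-24598683, plus strand) encodes a secreted matricellular protein. It was measured at 593, 649 and 550 CPM in untreated Null MEFs and at 2253, 2309 and 2033 CPM in untreated DKO MEFs. After etoposide the levels were 465, 512 and 459 CPM in Null MEFs and 713, 696 and 693 CPM in DKO MEFs. The ranges of the 4 groups did not overlap, and the 3 untreated DKO libraries stood apart from the other 9. The genotype difference was 3.68-fold without etoposide (log2 fold change 1.88, SE 0.06, adjusted p = 3.1e-14 from edgeR) and 1.46-fold after it (0.55, SE 0.06, adjusted p = 1.6e-07 from edgeR). Etoposide left 80.2% of the Ctgf level in Null MEFs and 31.9% in DKO MEFs, an interaction of -1.33 (SE 0.08, adjusted p = 5.8e-10 from edgeR). The antisense transcript Gm15270 shares 665 bases (23.2%) of the annotated Ctgf exons, and the libraries were made with a kit that keeps the strand. Whether the counting used the strand is not given in the sources used here, so it cannot be told whether the Ctgf count includes reads of Gm15270.

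Amotl2 (chr9:102716672-102733418, plus strand) encodes an angiomotin, which holds YAP at cell junctions and is itself induced by YAP. It was measured at 376, 379 and 384 CPM in untreated Null MEFs and at 1143, 1150 and 1073 CPM in untreated DKO MEFs. After etoposide its levels were 334, 329 and 324 CPM in Null MEFs and at 376, 381 and 376 CPM in DKO MEFs. The DKO libraries after etoposide thus overlapped the untreated Null libraries, and the 3 untreated DKO libraries stood apart from the other 9. The log2 fold change with etoposide was -1.57 (SE 0.03, adjusted p = 1.0e-16 from edgeR) in DKO MEFs and -0.21 (SE 0.03, adjusted p = 1.0e-05 from edgeR) in Null MEFs, the latter being -0.04 (adjusted p = 0.22 from edgeR) under library size alone. The interaction was -1.36 (SE 0.04, adjusted p = 3.2e-13 from edgeR). Its relatives had smaller genotype differences in untreated MEFs only. There Amotl1 stood at 237 ± 2.77 CPM in Null and 338 ± 8.03 CPM in DKO MEFs, and Amot at 102 ± 2.54 and 123 ± 3.34 CPM. In treated MEFs the excess in DKO over Null MEFs, on the log2 scale, was 0.37 for Amot, 0.23 for Amotl1 and 0.20 for Amotl2.

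Cyr61 (Ccn1, chr3:145646976-145649981, minus strand), a matricellular protein of the same family as Ctgf, was the member that etoposide moved in opposite directions in the genotypes. It was measured at 814, 863 and 753 CPM in untreated Null MEFs and at 1353, 1436 and 1445 CPM after etoposide. In DKO MEFs the order was the reverse, with 1657, 1522 and 1293 CPM without etoposide and 738, 754 and 696 CPM after it. The untreated DKO libraries varied more than those of other groups (SD 184 CPM) and overlapped the etoposide-treated Null libraries, while the DKO libraries after etoposide overlapped the untreated Null libraries at their lower end. Etoposide raised Cyr61 by a log2 fold change of 0.80 (SE 0.07, adjusted p = 1.1e-08 from edgeR) in Null MEFs while the log2 fold change in DKO MEFs was -1.03 (SE 0.07, adjusted p = 5.6e-10 from edgeR). The interaction of -1.83 (SE 0.10, adjusted p = 1.1e-10 from edgeR) was the largest of the 10 genes, and both directions held under each scaling. A rise in Null MEFs and a fall in DKO MEFs with an interaction past the threshold was found for 3.46% of all tested genes, and the reverse for 5.39%. The genotype difference accordingly changed sign, from 1.84-fold higher in DKO MEFs without etoposide (adjusted p = 5.0e-09 from edgeR) to 1.94-fold lower after it (adjusted p = 1.5e-09 from edgeR).

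Ankrd1 (chr19:36111961-36120099, minus strand), which encodes a muscle ankyrin repeat protein, was the member with the largest genotype difference. It was lower in DKO MEFs, where the other 3 targets were higher without etoposide, and after etoposide Cyr61 was lower too. It was measured at 174, 180 and 153 CPM in untreated Null MEFs and at 8.17, 10.1 and 9.21 CPM in untreated DKO MEFs. After etoposide the levels were 97.5, 111 and 103 CPM in Null MEFs and 6.78, 4.40 and 5.14 CPM in DKO MEFs. The 4 ranges did not overlap, and the lowest Null library, at 97.5 CPM, lay far above the highest DKO library, at 10.1 CPM. Ankrd1 was 18.3-fold lower in DKO MEFs without etoposide (log2 fold change -4.20, SE 0.11, adjusted p = 2.3e-15 from edgeR) and 19.5-fold lower after it (-4.28, SE 0.11, adjusted p = 4.6e-15 from edgeR). Etoposide lowered it in both genotypes, with log2 fold changes of -0.70 (SE 0.09) in Null MEFs and -0.79 (SE 0.12) in DKO MEFs (adjusted p = 1.6e-06 and 1.8e-05 from edgeR). The interaction of -0.09 (SE 0.15, adjusted p = 0.65 from edgeR) was not past the threshold.

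The promoter windows of Cyr61 (chr3:145649936-145650235, minus strand), Ankrd1 (chr19:36119795-36120094, minus strand) and Amotl2 (chr9:102717554-102717853, plus strand) are shown as those of the target genes that were matched, with the TEAD core motif or its reverse complement in capitals.
Cyr61 promoter: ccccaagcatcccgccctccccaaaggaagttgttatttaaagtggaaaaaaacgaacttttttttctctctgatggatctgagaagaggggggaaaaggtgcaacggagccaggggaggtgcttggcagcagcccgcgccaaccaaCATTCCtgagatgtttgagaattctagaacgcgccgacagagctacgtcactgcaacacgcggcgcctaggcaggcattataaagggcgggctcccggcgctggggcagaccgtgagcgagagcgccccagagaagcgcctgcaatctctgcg
Ankrd1 promoter: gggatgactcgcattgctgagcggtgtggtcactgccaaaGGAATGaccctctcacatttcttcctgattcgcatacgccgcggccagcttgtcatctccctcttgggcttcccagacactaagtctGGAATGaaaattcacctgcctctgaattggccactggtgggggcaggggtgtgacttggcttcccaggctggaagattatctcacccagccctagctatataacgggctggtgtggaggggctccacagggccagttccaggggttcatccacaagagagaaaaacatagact
Amotl2 promoter: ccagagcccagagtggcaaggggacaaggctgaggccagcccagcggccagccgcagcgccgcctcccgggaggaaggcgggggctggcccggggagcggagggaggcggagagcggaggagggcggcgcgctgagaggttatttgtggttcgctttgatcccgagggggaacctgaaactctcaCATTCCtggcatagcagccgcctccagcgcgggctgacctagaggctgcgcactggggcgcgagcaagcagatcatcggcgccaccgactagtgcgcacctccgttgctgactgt
The motif began at position -103 in Cyr61, at -210 and -123 in Ankrd1 and at -65 in Amotl2, and no E-box was in these windows.

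**Figure D2:**
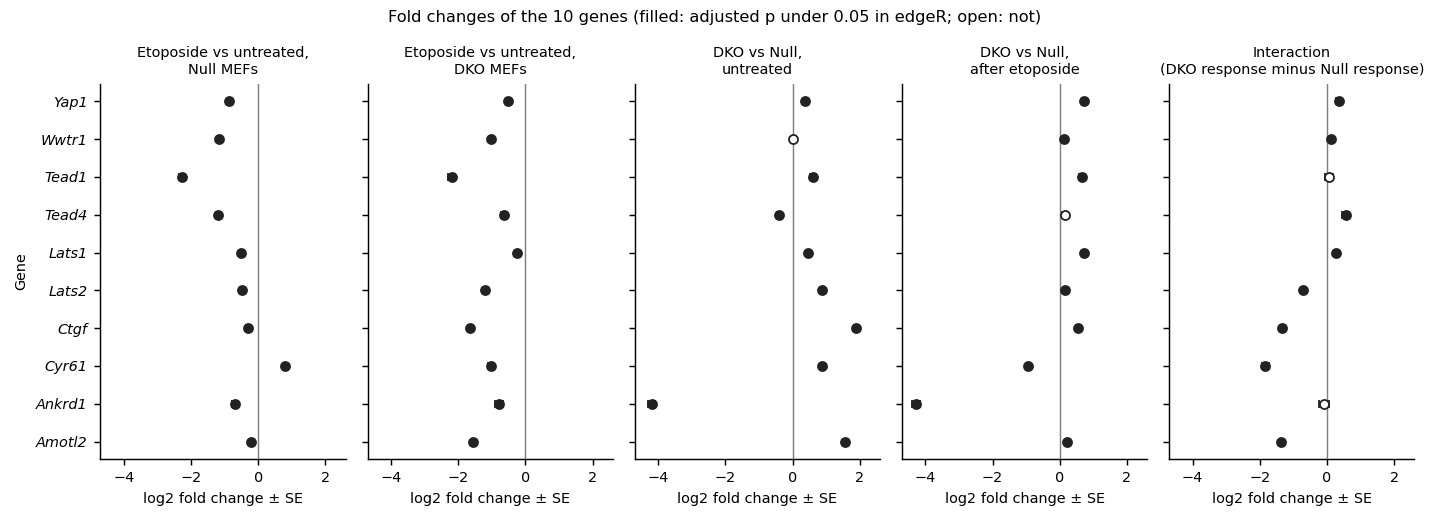
Log2 fold change of each of the 10 genes in the 4 comparisons between groups, with error bars for the standard error from edgeR. With etoposide the values run from -2.26 (Tead1) to 0.80 (Cyr61) in Null MEFs and from -2.20 (Tead1) to -0.24 (Lats1) in DKO MEFs, with Lats1 in DKO MEFs turning to 0.04 under library size alone, and between genotypes Ankrd1 stands apart at -4.20 and -4.28.

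Most tested genes of the rest of the pathway were past the threshold, as were most genes overall. Of 39 other Hippo pathway genes (kinases, scaffolds, upstream regulators and TEAD partners), 37 were tested, and 27 fell and 7 rose with etoposide in Null MEFs while 29 fell and 4 rose in DKO MEFs, beside 78.4% and 75.3% of all tested genes past the threshold. Under library size alone the split was 24 lower and 10 higher in Null MEFs, and 20 lower and 11 higher in DKO MEFs, where Stk4, Strn and Csnk1e turned to a rise past the threshold and Btrc turned without passing it. Amotl1 and Stk4 likewise turned in Null MEFs (0.07 and 0.06), and the fall of Amotl1 was lost with DESeq2 (-0.05), with its size factors in edgeR (-0.05), among genes averaging 1 CPM or more (-0.00844) and without Null_etoposide replicate 2 (-0.08). The medians were -0.34 and -0.39. The largest falls in Null MEFs were those of Wwc1, which encodes the scaffold KIBRA, from 88.1 ± 1.45 to 22.7 ± 0.118 CPM, of the protocadherin Fat4, from 104 ± 1.29 to 29.95 ± 1.93 CPM, and of Wwc2, from 174 ± 1.44 to 59.9 ± 2.54 CPM. In DKO MEFs Fat4 fell furthest, from 333 ± 9.67 to 57.0 ± 3.08 CPM, followed by Stk38l and by Frmd6, which fell from 222 ± 2.63 to 75.6 ± 1.86 CPM. Rassf1, a scaffold of the MST kinases, rose in both genotypes, from 99.2 ± 1.64 to 185 ± 6.73 CPM in Null MEFs and from 137 ± 2.27 to 209 ± 7.19 CPM in DKO MEFs. Mob1b, a LATS cofactor, rose to 79.9 ± 4.21 from 49.0 ± 1.26 CPM in Null MEFs, and Taok2 to 105 ± 2.69 from 87.2 ± 2.67 CPM in DKO MEFs.

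Between genotypes, where 67.4% of all tested genes were past the threshold without etoposide and 72.0% after it, the Hippo list was split, with 17 genes higher and 14 lower in untreated DKO MEFs (median 0.10, with 15 and 16 under library size alone) and 18 higher and 16 lower after etoposide (median 0.09, with 17 and 16 under that scaling and 16 each under DESeq2's size factors). Fat4, Tead3 and Wtip, a LIM protein that binds LATS, had the largest excess in untreated DKO MEFs, with log2 fold changes of 1.69, 1.22 and 1.03. Btrc (-0.50), which encodes a ubiquitin ligase subunit acting on YAP, and Csnk1e (-0.45) were among the lowest. After etoposide Fat4 (0.93), Wwc1 (0.84) and Limd1 (0.78) had the largest excess in DKO MEFs, and Frmd6 (-0.48) was among the lowest. The protocadherin Dchs1, a ligand of FAT4, was at or below 2 counts in each untreated DKO library, and averaged 0.396 CPM in untreated Null MEFs, 3.74 CPM in Null MEFs after etoposide and 0.671 CPM in DKO MEFs after etoposide. The interaction was past the threshold for 28 of the 37 genes, 13 above and 15 below 0 (17 and 14 under library size alone), beside 54.6% of all tested genes. Dlg5, Wtip, Tead3 and Vgll4 rose in Null MEFs and fell in DKO MEFs with etoposide, although under library size alone the falls of Dlg5 and Wtip in DKO MEFs were not past the threshold. The rise of Wtip in Null MEFs (0.15) was also lost without Null_untreated replicate 1 (0.13) or 2 (0.11) or without Null_etoposide replicate 3 (0.08).

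**Figure D3:**
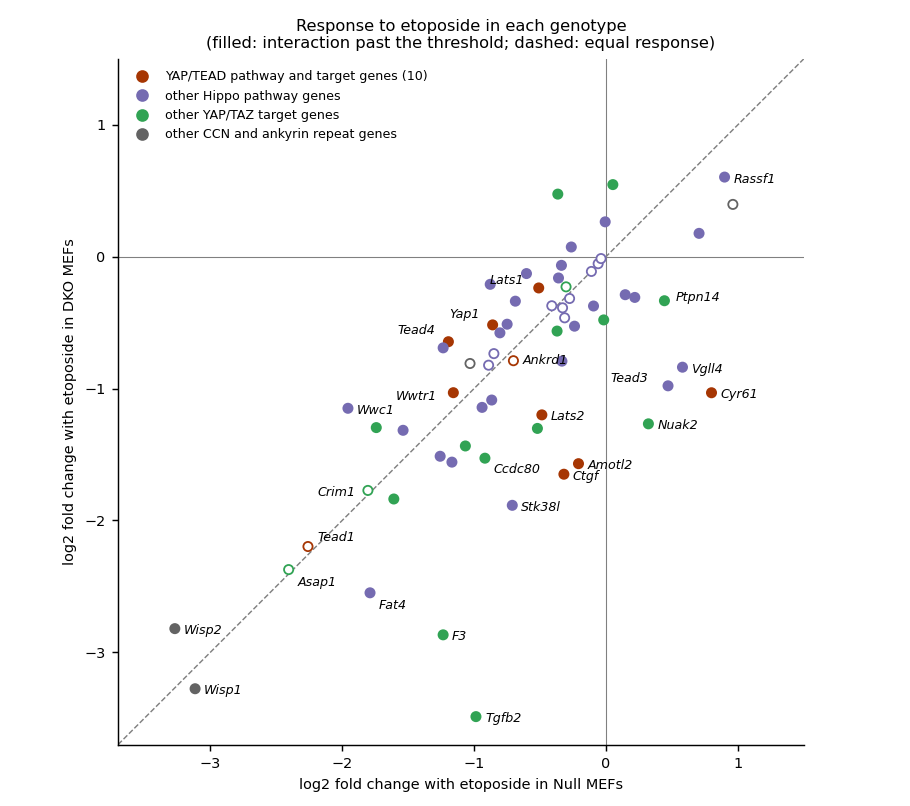
Log2 fold change with etoposide in Null MEFs (x axis) against that in DKO MEFs (y axis) for the 10 genes and the other listed genes that were tested, with filled points where the interaction was past the threshold and a dashed line of equal response (Dchs1 and Igfbp3, at or below 3 counts in the untreated DKO libraries, are left out). Cyr61 (0.80 and -1.03) lies in the lower right with Tead3, Vgll4, Nuak2 and Ptpn14, and Tgfb2 (-0.99 and -3.49) and F3 (-1.23 and -2.87) lie far below the line.

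A list of 17 other genes commonly used as YAP/TAZ targets was tested in full. With etoposide 11 fell and 3 rose in Null MEFs (median -0.52, with 4 rises under library size alone), and 14 fell and 3 rose in DKO MEFs (median -1.30), beside 36.8% and 31.3% of all tested genes that fell and 41.7% and 44.0% that rose. In DKO MEFs under library size alone 11 fell and 3 rose, and Axl turned to a log2 fold change above 0. The falls were deeper than 2-fold for 6 genes in Null MEFs and for 10 in DKO MEFs, beside 8.07% and 7.90% of all tested genes. Asap1 fell most in Null MEFs, from 139 ± 4.84 to 26.3 ± 0.719 CPM, followed by Crim1, from 206 ± 6.65 to 58.9 ± 3.06 CPM, and Dock5, from 118 ± 1.24 to 35.1 ± 2.70 CPM. Asap1 and Crim1 also fell in DKO MEFs, and their interactions of 0.03 each (adjusted p = 0.76 and 0.72 from edgeR) were not past the threshold.

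The largest falls in DKO MEFs were those of Tgfb2, which encodes a secreted growth factor, and of F3, which encodes tissue factor. Tgfb2 was measured at 20.6, 18.9 and 20.9 CPM in untreated Null MEFs and at 64.6, 66.2 and 65.6 CPM in untreated DKO MEFs, and after etoposide at 10.0, 10.4 and 9.98 CPM in Null MEFs and at 6.96, 5.59 and 5.22 CPM in DKO MEFs. Its genotype difference thus changed sign, with an interaction of -2.50 (SE 0.11, adjusted p = 8.0e-12 from edgeR). F3 went from 277 ± 12.7 CPM in untreated DKO MEFs and 89.5 ± 7.07 CPM in untreated Null MEFs to 38.0 CPM in both genotypes after etoposide (SD 1.86 in DKO and 0.289 in Null MEFs), an interaction of -1.63 (SE 0.08, adjusted p = 2.4e-11 from edgeR). Nuak2 and Ptpn14 rose in Null MEFs (0.32 and 0.44) and fell in DKO MEFs (-1.27 and -0.33), although the fall of Ptpn14 was not past the threshold under library size alone. Nt5e (0.55) and Fjx1 (0.47) rose in DKO MEFs, the latter from 2.63 ± 0.285 to 3.65 ± 0.471 CPM and not past the threshold without DKO_untreated replicate 2 (0.46) or 3 (0.39) or DKO_etoposide replicate 3 (0.35).

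In untreated DKO MEFs 11 of these 17 genes were higher and 3 lower than in Null MEFs (median 0.40, with 5 lower under library size alone), and after etoposide 6 were higher and 5 lower (median 0.00, with 5 higher and 7 lower under DESeq2's size factors). The share of all tested genes past the threshold was 67.4% without etoposide and 72.0% after it. Ccdc80, an extracellular matrix protein, had the largest excess, with 501, 501 and 503 CPM in untreated DKO MEFs against 64.5, 64.3 and 61.9 CPM in untreated Null MEFs, and 178, 167 and 177 CPM against 32.1, 35.7 and 33.05 CPM after etoposide. The transcription factor Foxf2 (1.90) and Tgfb2 (1.70) followed in untreated MEFs, and Nt5e (1.45) and Foxf2 (1.44) after etoposide. The lowest were Fjx1 (-0.54, or -0.45 and not past the threshold without Null_untreated replicate 3) and Axl (-0.19) without etoposide, and Tgfb2 (-0.80), Myof (-0.46) and Arhgef17 (-0.38) after it. Igfbp3 had no count in the untreated DKO libraries and averaged at most 0.175 CPM in the other groups. The interaction was past the threshold for 13 of the 17 genes, 3 above and 10 below 0 (4 and 7 under library size alone), beside 54.6% of all tested genes (29.9% above and 24.7% below 0), with a median of -0.23, or -0.37 with Igfbp3 at the bound that 3 counts allow.

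Ctgf and Cyr61 belong to the CCN family and Ankrd1 to the muscle ankyrin repeat family. Of 6 other CCN and muscle ankyrin repeat genes, 4 were tested, and Wisp3 and Ankrd2 were not kept by the filter. Wisp1 (Ccn4) fell from 876 ± 15.3 to 101 ± 1.72 CPM in Null MEFs and from 983 ± 2.25 to 101 ± 2.63 CPM in DKO MEFs with etoposide. Wisp2 (Ccn5) fell from 64.6 ± 1.70 to 6.73 ± 1.01 CPM in Null MEFs and from 179 ± 3.02 to 25.3 ± 0.580 CPM in DKO MEFs. Nov (Ccn3) fell from 20.8 ± 0.863 to 10.2 ± 1.49 CPM and from 13.6 ± 1.25 to 7.86 ± 1.29 CPM. These falls held under each scaling. In Null MEFs Cyr61 rose while the 4 other tested CCN genes, Ctgf included, fell, beside 41.7% of all tested genes that rose and 36.8% that fell. Ankrd23 rose in Null MEFs from 0.978 ± 0.158 to 1.91 ± 0.470 CPM, while its log2 fold change in DKO MEFs (0.40, adjusted p = 0.067 from edgeR) was past it only under library size alone. In untreated DKO MEFs Wisp2 (1.47), Ankrd23 (1.04) and Wisp1 (0.17) were higher and Nov (-0.61) was lower than in Null MEFs, the difference of Wisp1 falling to 0.05 and below the threshold under library size alone. After etoposide Wisp2 (1.92) was higher and Nov (-0.39) lower. The call of Ankrd23 (0.48) was lost with DESeq2 (0.42), with DESeq2's size factors in edgeR (0.42), among genes averaging 1 CPM or more (0.41), and without Null_etoposide replicate 3 (0.30), DKO_etoposide replicate 1 (0.44) or DKO_etoposide replicate 2 (0.41).

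To compare levels between genes, CPM were divided by the summed length of the annotated exons in kilobases. In untreated Null MEFs Cyr61 (401 CPM per kb) and Ctgf (209) led, followed by Wwtr1 (61.3), Amotl2 (60.4) and Ankrd1 (58.5), whose libraries overlapped, and by Lats1 (32.0), Lats2 (21.7), Tead1 (13.1), Yap1 (9.59) and Tead4 (7.36). In untreated DKO MEFs Ctgf (768) and Cyr61 (738) overlapped, Amotl2 (178) came next, and Ankrd1 (3.18) was last. After etoposide Cyr61 led in both genotypes, at 699 CPM per kb in Null MEFs and 361 in DKO MEFs, ahead of Ctgf at 167 and 245. The lowest levels after etoposide were those of Tead4 (3.22) and Tead1 (2.74) in Null MEFs, and of Tead1 (4.34) and Tead4 (3.56), which overlapped, and Ankrd1 (1.88) in DKO MEFs. Wwtr1 stood above Yap1 in each group, from 61.3 against 9.59 CPM per kb in untreated Null MEFs to 30.1 against 8.70 in DKO MEFs after etoposide. With the longest transcript as the length, the level of Yap1 was higher (16.8 CPM per kb in untreated Null MEFs) and 5 ranks changed in 2 groups: those of Wwtr1, Amotl2 and Ankrd1 in untreated Null MEFs and those of Lats1 and Lats2 in untreated DKO MEFs.

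**Figure D4:**
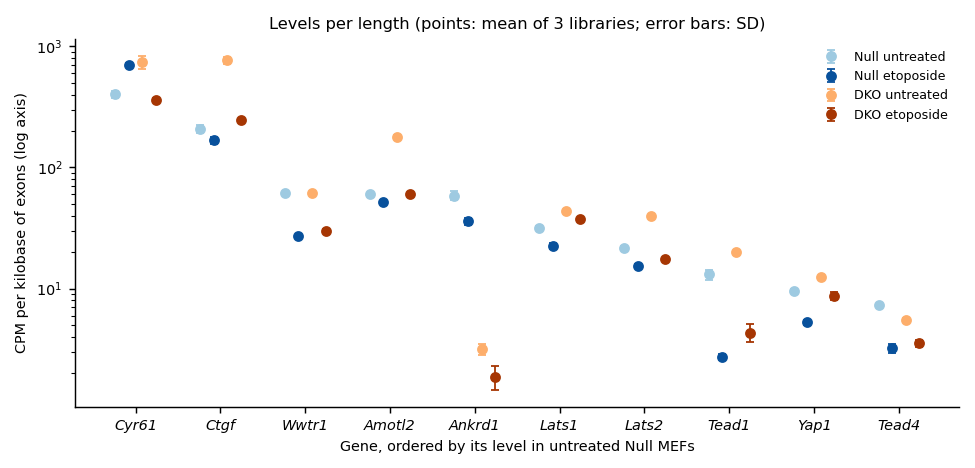
Level of each of the 10 genes per kilobase of annotated exon, on a log axis, in the 4 groups, with the mean and SD of 3 libraries. Cyr61 and Ctgf are above the other genes in each group (167 to 768 CPM per kb), and Ankrd1 drops from 58.5 in untreated Null MEFs to 3.18 in untreated DKO MEFs.

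Genes with the most similar pattern to 4 of the members were sought among 9343 genes averaging 10 CPM or more, by the root mean square difference of centred log2 group means over the 4 groups. Nearest to Yap1 were Clock (0.02), Col6a2 (0.02) and Prkx (0.02). Cyr61 had 1 close gene, Arl4c (0.03), measured at 98.3 and 169 CPM in Null MEFs without and with etoposide and at 172 and 89.2 CPM in DKO MEFs, and then Micall2 and Cnst (0.15 each). Nearest to Ctgf were Pqlc1 (0.15), Adarb1 (0.16) and Rb1cc1 (0.17). Peg10 (0.33) and Zfp462 (0.49) were among the genes nearest to Ankrd1, both of them lower in DKO than in Null MEFs.

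The 10 genes differ in the length of their transcription units. Tead1 spans 227 kb and Wwtr1 120 kb, and their log2 fold changes in Null MEFs were -2.26 and -1.16. Tead4 (76.5 kb), Yap1 (72.6 kb) and Lats2 (68.7 kb) had -1.20, -0.86 and -0.49, and Lats1 (35.2 kb) and Amotl2 (16.7 kb) had -0.51 and -0.21. Ctgf, Cyr61 and Ankrd1 span under 10 kb (3.24, 3.01 and 8.14 kb), with -0.32, 0.80 and -0.70. In Null MEFs Tead1, Wwtr1, Tead4 and Yap1 had the longest spans and the lowest values, and Cyr61 had the shortest span and the only rise. The 2 orders were not the same throughout, since Ankrd1 had a lower value than the longer Lats1, Lats2 and Amotl2. Across all tested genes with a known span, the median log2 fold change in Null MEFs was 0.20 for 3980 genes under 10 kb, 0.15 for 4803 genes of 10 to 30 kb, -0.09 for 4259 genes of 30 to 100 kb, -0.38 for 1627 genes of 100 to 300 kb and -0.42 for 390 longer genes. In DKO MEFs the medians were 0.24, 0.20, 0.01, -0.25 and -0.29. Among the 10 genes in DKO MEFs, the log2 fold changes of Tead1 and Wwtr1 were -2.20 and -1.03. Those of Tead4, Yap1 and Lats2 were -0.64, -0.52 and -1.20. Lats1 had -0.24 (0.04 under library size alone) and Amotl2 had -1.57. Ctgf, Cyr61 and Ankrd1 had -1.65, -1.03 and -0.79. The part of gene span in the falls of the 10 genes was not tested.

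**Figure D5:**
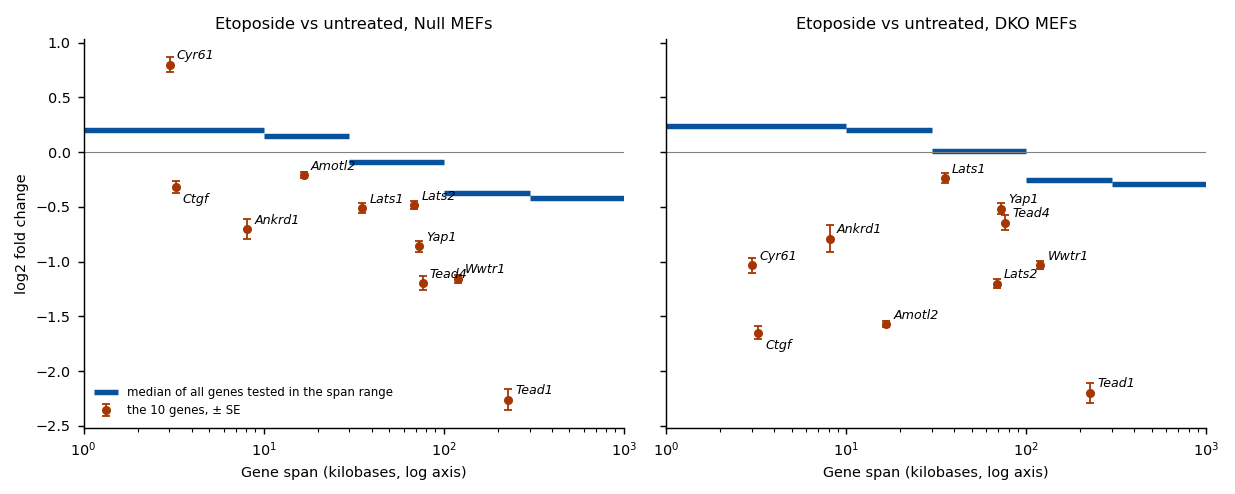
Log2 fold change with etoposide against genomic span in kb (log axis) for the 10 genes in Null and DKO MEFs, with standard errors, and horizontal lines for the median of all tested genes in each of 5 ranges of span, the last drawn to 1000 kb. The medians run from 0.20 down to -0.42 in Null MEFs and from 0.24 down to -0.29 in DKO MEFs, and Tead1 (227 kb) lies lowest at -2.26 and -2.20.

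Markers of cell types were measured beside these results. Fibroblast markers, of which 12 of 12 were tested, were led by Vim in Null MEFs, by Vim or Fn1 in untreated DKO MEFs and by Fn1 in DKO MEFs after etoposide, and their summed level was 7093 to 7200 CPM in untreated Null MEFs, 11678 to 12263 CPM in untreated DKO MEFs, 3971 to 4066 CPM in Null MEFs after etoposide and 5139 to 5451 CPM in DKO MEFs after etoposide. Of the 12, 11 were higher and 1, Thy1, was lower in untreated DKO than in untreated Null MEFs, beside 33.4% and 34.1% of all tested genes. With etoposide 9 fell and 1 rose in Null MEFs, beside 36.8% and 41.7% of all tested genes, and 11 fell and 1 rose in DKO MEFs (8 and 1 under library size alone), beside 31.3% and 44.0%. Their part in the results for the 10 genes was not tested. In bulk RNA a lower share of cells of a type and less RNA per cell cannot be told apart. Markers of endothelium summed to at most 2.89 CPM in any library, those of blood to at most 13.2 CPM and those of epithelium to at most 5.94 CPM. With etoposide each of the 4 endothelial markers and both tested blood markers of 5, Cd68 and Ptprc, rose in both genotypes, also under DESeq2's size factors and library size alone. Cd68 led the blood markers, with 1.20 to 1.59 CPM in untreated and 11.5 to 12.5 CPM in etoposide-treated Null MEFs, and 1.26 to 2.09 and 2.85 to 3.48 CPM in DKO MEFs. Of the 6 epithelial markers 3 rose and 1 fell in Null MEFs and 4 rose and 1 fell in DKO MEFs, under each scaling. In the untreated libraries Cdh5 and Ptprc had at most 2 counts, and Adgre1 and Cd3e had none. The part of these markers in the results was not tested. The neuronal tubulin Tubb3 made up most of the neural markers, which summed to 60.2 to 65.1 CPM in untreated Null MEFs and 15.6 to 17.4 CPM in untreated DKO MEFs. After etoposide the neural sums were 64.4 to 70.1 CPM in Null MEFs and 29.6 to 32.2 CPM in DKO MEFs. Of the 4 neural markers 3 rose and 1 fell in each genotype, beside 41.7% and 44.0% of all tested genes that rose. Their part in the results was not tested either. Muscle markers, led by Des in all groups but untreated DKO MEFs, where Acta1 led, summed to 34.0 to 39.3 CPM in Null MEFs after etoposide and to at most 4.80 CPM in the other groups, with Myod1 and Myog at 0 in the untreated libraries.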

How the data were processed

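The values that the authors deposited are raw read counts by gene for 12 libraries of MEFs. The submitters' processing notes name HISAT2, featureCounts and mm10, while the methods of the study name HISAT2, unique alignments and HTSeq on GENCODE genes. The libraries were made with a stranded total RNA kit, and the strand setting of the counting is not given in the sources used here. In each library, 53.4 to 63.1% of the summed lines lay on genes, 20.2 to 27.3% on no feature, 15.9 to 20.5% were not unique and 0.428 to 0.513% ambiguous, and these 5 summary lines entered neither the totals nor the tests.

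The tests used edgeR 4.0.16 in R 4.3.3, with filterByExpr by the 4 groups, TMM factors (0.884 to 1.09), and glmQLFit and glmQLFTest in a single fit to the 12 libraries, with group as the factor. There were 5 comparisons, each adjusted by the Benjamini-Hochberg method over 15220 genes with a threshold of 0.05. The SE was the size of the log2 fold change over the square root of F. Replicates differed by more than sampling noise (11.1 to 23.0 by chi-square over its degrees of freedom) and were kept separate. Up to 3 counts per library counted as not detected, a floor that covers counting error only.

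The members and gene lists were chosen with earlier results of these data known. Named genes follow a rule: the 10 members, Tfeb, Tfe3, Cdkn1a and Mdm2, the paralogs and Vgll genes, the 3 nearest genes by pattern to Yap1, Ctgf, Cyr61 and Ankrd1, and from each list the 3 largest rises and falls in each comparison of groups among genes past the threshold that averaged 1 CPM or more. Dlg5, Strn, Igfbp3, Ankrd2 and single markers of cell types were named after their values were seen. Some genes that the rule names are not reported here. Gene positions are from GENCODE M21 (GRCm38), matched by symbol for 8 members and by synonym for 2, and promoters are from RefSeq (GRCm38.p6). Alternatives were DESeq2 1.42.0, limma-trend (limma 3.58.1), DESeq2's size factors, library size alone, no filter, genes averaging 1 CPM or more, thinning to the smallest total, a replicate block, robust dispersions, the 6 libraries compared, each library left out, and for levels the longest transcript as length. The fits were tested on simulated data, with an outcome that is not given here, and plots were drawn with matplotlib 3.10.9.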

Additional observations from a re-analysis of the deposited data

Results flagged for a closer look

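The response to etoposide differed between Null and DKO MEFs, by the interaction term of edgeR's quasi-likelihood fit, for 8 of the 10 genes, beside 54.6% of all tested genes. The interaction, the log2 response in DKO MEFs minus that in Null MEFs, was 0.34 for Yap1, 0.13 for Wwtr1, 0.55 for Tead4 and 0.27 for Lats1, which fell less in DKO MEFs. It was -0.71 for Lats2, -1.33 for Ctgf and -1.36 for Amotl2, which fell more in DKO MEFs, and -1.83 for Cyr61, which rose in Null MEFs and fell in DKO MEFs. For Wwtr1 the interaction was not past the threshold with DESeq2, with DESeq2's size factors, without a filter, among genes averaging 1 CPM or more, or when 6 of the 12 libraries were left out singly, and under library size alone Lats1 did not fall in DKO MEFs (log2 fold change 0.04).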

How the results depend on the processing

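The number of the 10 genes past the threshold stayed between 9 and 10 for etoposide in each genotype and for the untreated genotypes, between 8 and 10 for the genotypes after etoposide and between 7 and 8 for the interaction, over the alternatives run. Of 850 values of the 10 genes under alternatives, 820 kept their direction and side of the threshold, as did 2158 of 2207 values of the other named genes. Among these values direction turned as follows, and the cause was not tested. Outside them, Strn, Csnk1e, Btrc and Axl turned under library size alone for etoposide in DKO MEFs. Under library size alone the log2 fold change with etoposide was 0.0734 for Amotl1 and 0.0575 for Stk4 in Null MEFs, and 0.162 (past the threshold) for Stk4 and 0.0364 for Lats1 in DKO MEFs. Under that scaling the genotype difference was -0.114 (past the threshold) for Wwtr1 without etoposide and -0.00948 for Wisp1 after it, and the interaction was 0.104 for Stk4 and 0.0184 for Ankrd1. The genotype difference of Wwtr1 without etoposide was also -0.000312 without a filter, -0.00700 among genes averaging 1 CPM or more, -0.0222 after thinning and -0.00174 with the 6 libraries compared. That of Wisp1 after etoposide was -0.0559 with DESeq2, -0.0542 with DESeq2's size factors, -0.0137 without a filter and -0.0586 among genes averaging 1 CPM or more. The interaction of Tead2 was -0.0253 with DESeq2, -0.0242 with DESeq2's size factors and -0.0112 among genes averaging 1 CPM or more. That of Tead1 was -0.000565 with DESeq2's size factors, and the genotype difference of Tfe3 after etoposide was 0.000242 after thinning. With each library left out in turn, the genotype difference lay between -0.00344 and 0.0169 for Wwtr1 untreated, between -0.0350 and 0.0105 for Wisp1 after etoposide and between -0.0537 and 0.0331 for Tfe3 after etoposide. The interaction lay between -0.0819 and 0.172 for Tead1, between -0.0260 and 0.0173 for Stk4 and between -0.253 and 0.0241 for Ankrd1. With all 12 libraries, none of these last 6 was past the threshold in edgeR. The interaction of Tfeb (0.49) was lost without DKO_etoposide replicate 3 (0.33). Of 40 levels per length, 31 moved by more than their SD with the longest transcript.

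The correlation of deviations between same-numbered libraries ranged from -0.03 to 0.04 over 18 pairs, against -0.05 to 0.05 over 36 pairs with different numbers. Of the 12 libraries, 7 correlated best with their own number. With 3 libraries per group these values do not settle whether replicate numbers pair the samples. The fit with a replicate block placed 10, 10, 9, 9 and 8 of the 10 genes past the threshold in the 5 comparisons, the counts without it, and 11873, 11374, 10206, 10886 and 8196 of all genes. Under library size alone the split of all genes past the threshold was 7656 higher and 4350 lower for etoposide in Null MEFs (6342 and 5598 with TMM), 9351 and 2975 for etoposide in DKO MEFs (6702 and 4757), 3997 and 6473 for the untreated genotypes (5080 and 5183) and 5782 and 3110 for the interaction (4553 and 3757). Depth limits Dchs1, Igfbp3 and the markers at or below 3 counts, for which levels are given in place of folds.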

Other observations

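Levels of markers of other cell types are given as sums over each list. The 5 blood markers, led by Cd68 in each library, summed to 1.28 to 1.62 CPM in untreated and 11.9 to 13.2 CPM in etoposide-treated Null MEFs, and to 1.29 to 2.14 and 3.24 to 3.98 CPM in DKO MEFs. The 4 endothelial markers summed to 0.0615 to 0.221 and 2.19 to 2.89 CPM in Null MEFs, led by Tek after etoposide, and to 0.0543 to 0.211 and 0.888 to 1.52 CPM in DKO MEFs, led by Pecam1 or Tek after etoposide. The leukocyte gene Ptprc had at most 2 counts and the endothelial gene Cdh5 at most 1 count in each untreated library. The sums themselves were not tested.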
